A study of Mus musculus with 4 samples.

Results

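Start site windows of small nuclear and small nucleolar RNA genes were examined for the repressive histone mark H3K9me3 in regulatory T cells (Tregs) with and without KAP1. The windows were taken by Ensembl identifier number, from ENSMUSG00000064380 to ENSMUSG00000065389 and from ENSMUSG00000087700 to ENSMUSG00000089599. These are blocks made up mostly of small nuclear, small nucleolar and other small RNA genes and of repeat-derived copies of them. The rule was set with earlier results of these data known. The rule found 2012 windows of 51121 in the table, 563 in the first block and 1449 in the second. They were set beside the 17863 windows with identifiers up to ENSMUSG00000063999, mostly of protein-coding genes and called here the early identifiers. The blocks are proxies for gene class. Of the identifiers, 0 matched an entry of the RefSeq gene table used here (GRCm38.p6), which lists 1004 snRNA and 1340 snoRNA genes, so the class of single windows was not checked, and no names, positions or sequences are given.

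Small nuclear RNAs form the core of the spliceosome, which removes introns from messenger RNA precursors. Small nucleolar RNAs guide the chemical modification of ribosomal RNA, and in mammals most of them are cut from introns of host genes. Mammalian genomes also carry many dispersed copies of such RNAs that were inserted by retrotransposition and are mostly not transcribed. KAP1, also called TRIM28, is a co-repressor that does not bind DNA itself; zinc finger proteins carry it to their targets, above all retroelements, where it recruits the enzyme that deposits H3K9me3.

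The chromatin came from sorted spleen Tregs of C57BL/6 mice, a T cell class that holds immune responses in check and depends on the transcription factor Foxp3. Both table headings name Foxp3cre, a recombinase expressed from the Foxp3 locus, with KAP1+/+ in the KAP1-sufficient group and KAP1f/f, the floxed allele that the recombinase removes in Foxp3-expressing cells, in the KAP1-deficient group. The study had 4 samples, an anti-H3K9me3 precipitate and an input of each genotype, and the table has 2 columns, 1 per genotype. The headings do not name the antibody, so the columns are read as H3K9me3 from the study's description and named by genotype, as KAP1-sufficient and KAP1-deficient libraries. Neither the age of the mice nor their number per library is stated in the labels. Loss of KAP1 and the identity of the cells were not checked in these windows, since no identifier was paired with a gene name.

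The libraries held 480326 and 228009 reads in windows, 2.11 times as many in the KAP1-sufficient library. Library totals, depth and shares of a library refer throughout to these reads in windows. Reads outside the windows were not available, so full sequencing depth is not known. Each genotype has 1 library, so there is no replicate spread and no test between genotypes was made. All intervals are 95% intervals that cover counting error only, and they treat reads and windows as independent. No input was compared, so a difference in read density is not shown to be a difference in H3K9me3.

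Windows of the small RNA blocks were seldom empty. Of the 2012 windows, 25 held 0 reads in both libraries, which is 1.24% (exact binomial interval 0.806 to 1.83). Among the early identifiers, 418 windows were empty, 2.34% (2.12 to 2.57), and among the 31246 later identifiers outside the blocks 18.3% were (17.8 to 18.7). The intervals of the 3 sets did not overlap. The small RNA blocks thus had a lower share of empty windows than the early identifiers, and a far lower one than the other late identifiers. The blocks had the same share, with 7 empty windows (1.24%) in the first and 18 (1.24%) in the second. For an empty window where reads could be mapped and kept, which was not tested, up to 3 reads per library remain possible.

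Windows empty in a single library were also few. In the KAP1-deficient library alone 36 small RNA windows held 0 reads, 1.79% (1.26 to 2.47), against 548 or 3.07% (2.82 to 3.33) of the early identifiers. In the KAP1-sufficient library alone 4 did, 0.199% (0.0542 to 0.508), against 50 or 0.280% (0.208 to 0.369), and these intervals overlap. In the KAP1-sufficient library 1.44% of small RNA windows held 0 reads and a smaller 0.795% held 1 read. The early identifiers showed the same at a larger size, with 2.62% at 0 reads and 0.991% at 1. In the shallower KAP1-deficient library 3.03% of small RNA windows held 0 reads and 5.12% held 1, so no separate peak of empty windows was seen there.

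Levels differed from those of early identifiers in one library and not detectably in the other. In the KAP1-sufficient library the small RNA windows held a mean of 10.6 reads, with an SD of 4.51 over windows, a median of 10 and quartiles of 7.75 and 13. The early identifiers held a mean of 11.99 reads, with an SD of 5.61, a median of 12 and quartiles of 8 and 16. The mean of the small RNA windows was 0.881 times that of the early identifiers (0.868 to 0.893). In the KAP1-deficient library the means were 5.46 reads (SD 3.29) and 5.39 reads (SD 3.60), and both sets had a median of 5 and quartiles of 3 and 7. The mean of the small RNA windows was here 1.01 times that of the early identifiers (0.992 to 1.03), an interval that includes 1.

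**Figure D1:**
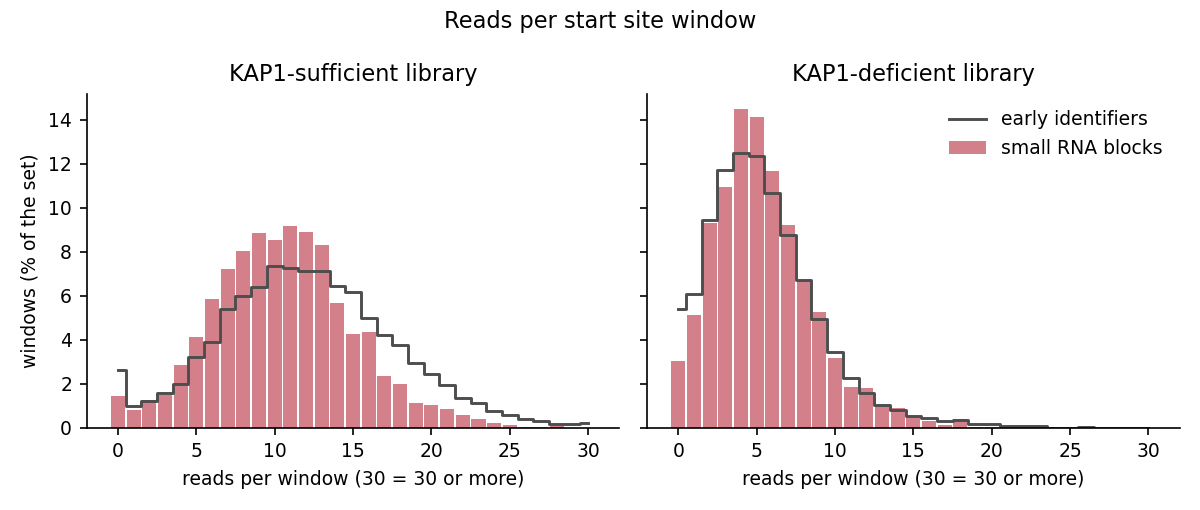
Reads per start site window on the horizontal axis and percent of windows of the set on the vertical axis, for the small RNA blocks (red bars, 2012 windows) and the early identifiers (grey line, 17863 windows), in the KAP1-sufficient (left) and KAP1-deficient (right) library. On the left the bars lie to the left of the line, with medians of 10 and 12 reads; on the right both medians are 5.

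Set against all windows that are not in the blocks, the comparison of levels turned round. The small RNA windows then held 1.13 times as many reads in the KAP1-sufficient library (1.11 to 1.14) and 1.23 times as many in the KAP1-deficient library (1.21 to 1.26). The other late identifiers had means of 7.84 and 3.86 reads, empty windows included. Read density was more even across the second block than across the early identifiers, and about as uneven in the first. Coefficients of variation were taken beyond counting noise and over windows with at least 1 read. In the KAP1-sufficient library the coefficient was 27.3% for all small RNA windows, 33.0% for the early identifiers and 48.0% for all windows. In the KAP1-deficient library these values were 40.7%, 48.1% and 64.3%. By block the coefficient was 33.3% in the first and 24.6% in the second for KAP1-sufficient reads, and 46.5% and 38.4% for KAP1-deficient reads.

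The upper tail of the small RNA windows was short. Over both libraries together, 536 of them (26.6%) held 20 reads or more, against 6678 (37.4%) of the early identifiers. At the other end, 270 small RNA windows (13.4%) held 1 to 9 reads, against 2294 (12.8%). The highest count of a small RNA window was 28 reads in each library, while the highest of the whole table were 615 and 408. The most-read window had 20 KAP1-sufficient reads (Poisson interval 12.2 to 30.9) and 28 KAP1-deficient reads (18.6 to 40.5), and it was among the windows called higher. The next held 45 reads over both libraries, so no single window stood far above the others. In the 10 windows with the most reads, KAP1-sufficient counts ran from 20 to 28 and KAP1-deficient counts from 13 to 28. The KAP1-deficient density, scaled to library totals, was the higher in 10 of these 10 windows, although a sort on summed reads picks out windows that are high in either library. Such a lean was not limited to the blocks. Among windows with 30 reads or more, the pooled ratio was 1.19 (1.17 to 1.22) for early identifiers and 1.38 (1.27 to 1.50) for small RNA windows.

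The small RNA windows held a larger share of the KAP1-deficient than of the KAP1-sufficient reads in windows. They held 21238 reads or 4.42% of the KAP1-sufficient reads in windows, and 10976 reads or 4.81% of the KAP1-deficient ones. Pooled over the windows and scaled to library totals, the ratio of KAP1-deficient to KAP1-sufficient reads was 1.09 (1.06 to 1.11). The early identifiers held 214124 and 96286 reads, 44.6% and 42.2% of the reads in windows, at a pooled ratio of 0.947 (0.940 to 0.955). The ratio of the small RNA windows was thus 1.15 times that of the early identifiers (Woolf interval 1.12 to 1.18), a figure that no scaling of the libraries alters. On the separate scales its components were the lower KAP1-sufficient level and the near-equal KAP1-deficient level given above.

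The ratio was not as far from that of other late identifiers. Outside the blocks these had a pooled ratio of 1.04 (1.03 to 1.05), and the small RNA windows lay 1.05 times above it (1.02 to 1.07). A ratio above 1 on this scale was therefore shared with the other late identifiers as a whole. Scaling to library totals sets the ratio over all windows to 1. With the early identifiers below 1, the remaining windows together had to lie above 1 by construction. The size of the small RNA ratio depended on the scaling, as all such ratios do. It was 1.12 (1.09 to 1.15) with the median of ratios and 1.15 (1.12 to 1.18) on the total of the early identifiers. Both scalings raise every such ratio, so neither could bring it below 1.

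Single windows varied by more than this shift. The log2 ratio of windows past the low-count filter given below had an SD of 0.66 over the small RNA windows, 0.68 over the early identifiers and 0.69 over all windows. Of the 1987 small RNA windows with at least 1 read, 1031 (51.9%) had the higher scaled density in the KAP1-deficient library, against 42.5% of the early identifiers and 46.8% of all windows. After adding 2 reads, the median log2 ratio of these windows was 0.06, against -0.12 for the early identifiers and -0.07 for all windows. The squared deviations of the window shares from the set's own share were 1.07 times the binomial variance, against 1.15 for the early identifiers and 1.15 for all windows. For the later identifiers outside the blocks the SD of the log2 ratio was 0.70, above that of both these sets. On the other values so far they lay between the small RNA windows and the early identifiers. Of their windows with reads, 49.4% had the higher KAP1-deficient density. Their median log2 ratio was -0.02 and their squared deviations were 1.14 times the binomial variance. Across the 1987 windows, which are not replicates, the Pearson r between the counts of the libraries was 0.42 and the Spearman rho 0.38, against 0.50 and 0.49 for the early identifiers. The blocks lay on either side of these, at 0.54 and 0.52 in the first and 0.36 and 0.32 in the second. The points share the depth of the 2 libraries, and a narrow range of counts lowers such values.

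Calls were more often higher than lower in the small RNA blocks. A call needed a 2-fold or larger log2 ratio and an exact interval of the window's share of reads that did not include the share of the whole library. Of the 2012 windows, 1717 (85.3%) averaged 5 reads or more per library and entered the calls. Among them 61 (3.55%) were called higher in the KAP1-deficient library, against 2.49% of all windows past the filter, 1.80% of the early identifiers and 2.96% (552 windows) of the later identifiers outside the blocks. A further 13 (0.757%) were called lower, against 1.81% of all windows, 2.24% of the early identifiers and 1.56% (292 windows) of the later identifiers outside the blocks. With 10 reads added the counts were 6 higher and 2 lower, and with a mean of at least 10 reads 32 and 8. Under either other scaling the lower calls were 8 (0.466%). Over all windows past the filter the lower share was 1.446% with the median of ratios and 1.398% on the total of the early identifiers. The higher calls were 61 (3.55%) and 66 (3.84%) in that order, against 2.645% and 3.036% of all windows. Higher windows were 82.4% of the calls in the blocks and 57.9% of those over all windows (64.6% with the median of ratios and 68.5% on the total of the early identifiers). They were 44.5% of the calls among the early identifiers, a split that became 52.1% with the median of ratios and 57.1% on the total of their own reads, while that of the blocks became 88.4% and 89.2%. As a pooled ratio above 1 moves windows over the higher limit and away from the lower one, these counts and the pooled ratio are not separate results.

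The calls rested on few reads. The 61 higher windows held a median of 8 KAP1-sufficient and 12 KAP1-deficient reads, and from 10 to 48 reads over both. The 13 lower windows held a median of 18 KAP1-sufficient reads and 1 KAP1-deficient read, and 2 of them held 0 in the KAP1-deficient library. In the first block 19 (4.26%) of 446 windows past the filter were called higher and 3 (0.673%) lower. In the second block 42 (3.30%) of 1271 were called higher and 10 (0.787%) lower. The shares were 2.49% and 1.81% over all windows, and 2.96% and 1.56% for the later identifiers outside the blocks.

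The 2 windows in each direction whose interval lay farthest from 1 were as follows. The window of ENSMUSG00000088280 held 2 KAP1-sufficient and 9 KAP1-deficient reads, a scaled ratio of 9.48 (1.96 to 90.2). The window of ENSMUSG00000088044 held 5 and 13 reads, a ratio of 5.48 (1.83 to 19.6). The wide intervals show how little such counts fix. In the other direction, ENSMUSG00000089291 held 20 KAP1-sufficient reads and 1 KAP1-deficient read, a ratio of 0.105 (0.00254 to 0.659). ENSMUSG00000088046 held 19 and 1, which gives 0.111 (0.00267 to 0.697). Being picked as the extremes of 1717 windows, these 4 have intervals that understate their uncertainty.

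**Figure D2:**
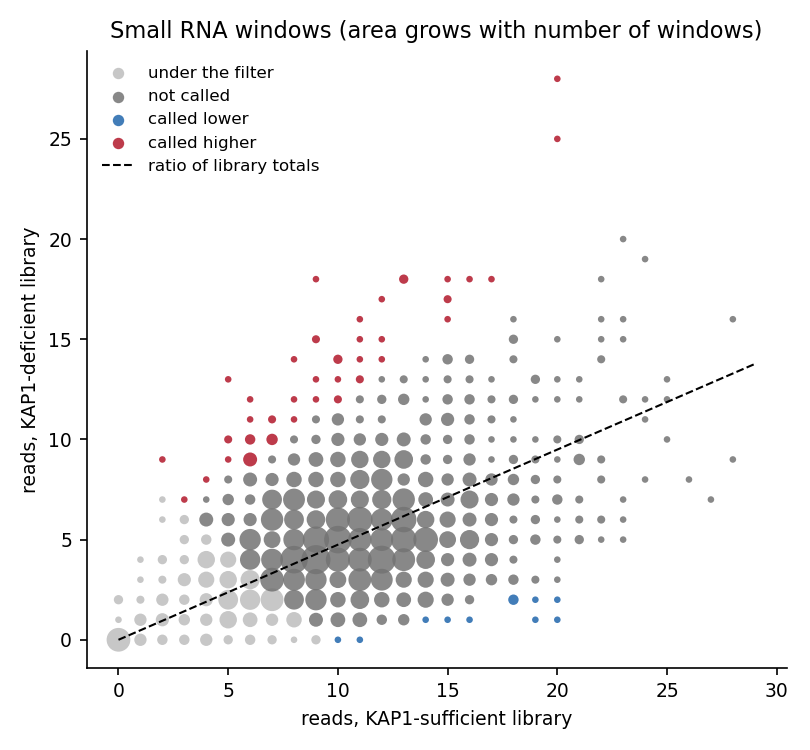
Reads of the 2012 small RNA windows in the KAP1-sufficient (horizontal) and KAP1-deficient (vertical) library; each point is a pair of counts and its area grows with the number of windows that have it. The dashed line is the ratio of library totals, the 61 windows called higher (red) and the 13 called lower (blue) lie at the edges of 1 continuous cloud, and windows under the filter are light grey.

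Both blocks showed the shift. The first block had a mean of 9.85 KAP1-sufficient and 5.31 KAP1-deficient reads, at a pooled ratio of 1.14 (1.09 to 1.19). The second had means of 10.8 and 5.51 reads, at a ratio of 1.07 (1.04 to 1.10). The ratio of the first was 1.06 times that of the second (1.01 to 1.12), an interval whose lower limit is close to 1. The first block also held 0.909 times as many reads per window as the second in the KAP1-sufficient library (0.882 to 0.938) and 0.964 times in the KAP1-deficient library (0.924 to 1.01), where the interval includes 1.

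The shift was spread along the identifiers. The blocks were divided into 20 sub-blocks, of 100 identifier numbers in the first and 200 in the second. The pooled ratio was above 1 in 19 of the 20 and above that of the early identifiers in 20, and in 15 the whole interval lay above it. It was lowest at 0.969 (0.887 to 1.06) in ENSMUSG00000087900 to ENSMUSG00000088099 and highest at 1.35 (1.16 to 1.57) in ENSMUSG00000064980 to ENSMUSG00000065079, both singled out after their values were seen. The intervals of 18 sub-blocks contained the value of all small RNA windows. Most intervals also contained the 1.04 of the later identifiers outside the blocks, and not every sub-block lay above that value. Leaving out each sub-block in turn gave pooled ratios from 1.08 to 1.10. The mean level in the KAP1-sufficient library ran from 8.63 to 11.5 reads and was below that of the early identifiers in 20 of 20 sub-blocks, while in the KAP1-deficient library it ran from 4.70 to 6.00 reads and was above it in 9. Each sub-block held from 0 to 4 empty windows.

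**Figure D3:**
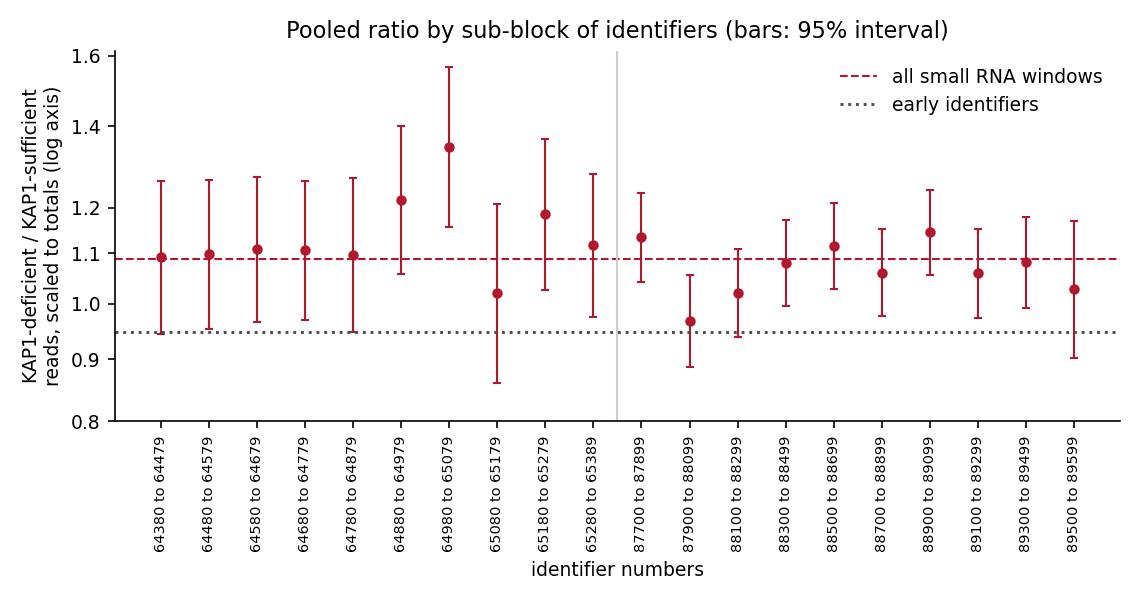
Pooled ratio (KAP1-deficient over KAP1-sufficient), scaled to library totals (log axis), in 20 sub-blocks of identifiers; bars are exact 95% intervals and the vertical line parts the blocks. The points lie around the dashed line of all small RNA windows (1.09), and 20 of 20 lie above the dotted line of the early identifiers (0.947).

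Windows just outside the identifier limits had pooled ratios below 1 in 3 of 4 places, but all 4 outside intervals included 1. A fall at the end of the first block was not seen on a wider scale. The numbers ENSMUSG00000065000 to ENSMUSG00000065999, of which 34.7% were small RNA windows, had a pooled ratio of 1.12 (1.07 to 1.17). In the last 200 numbers inside the first block the ratio was 1.14 (1.03 to 1.26), and in the next 200 outside it was 0.973 (0.901 to 1.05). In the first 200 numbers of the second block it was 1.13 (1.04 to 1.23), and in the 200 before them 0.993 (0.908 to 1.08). At the end of the second block it was 1.05 (0.965 to 1.15) inside and 0.985 (0.895 to 1.08) outside. At the start of the first block the values were 1.10 (0.991 to 1.21) inside and 1.07 (0.908 to 1.27) outside, the latter from 45 windows. Around the second block empty windows also changed at the limits, from 9 of 162 before it to 1 of 149 inside, and from 2 of 140 inside to 15 of 151 after it. Around the first block they went from 3 of 45 before it to 1 of 117 inside, and at its end from 2 of 120 inside to 0 of 175 outside, so the block's end did not show more empty windows outside.

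The higher ratio was also found within classes of windows with similar reads. From 5 reads upward, windows with more reads had higher ratios in both sets, and the small RNA windows had fewer reads than the early identifiers. Windows were compared within 7 classes of reads over both libraries, a comparison chosen after the data were seen. Each class spans a range of reads, and the last (30 or more) is open. Later identifiers outside the blocks were not compared by class. In windows with 10 to 14 reads the ratio was 1.02 (0.968 to 1.07) for the 540 small RNA windows and 0.861 (0.844 to 0.878) for the 3900 early identifiers. In windows with 15 to 19 reads it was 1.04 (1.00 to 1.09) and 0.894 (0.881 to 0.908). In windows with 30 reads or more it was 1.38 (1.27 to 1.50) for 69 small RNA windows and 1.19 (1.17 to 1.22) for 1210 early identifiers. The small RNA windows had the higher ratio in 7 of 7 classes, by 1.09 to 1.26 times, and in 6 the interval of this quotient lay above 1; the exception was the class with 1 to 4 reads, with 51 small RNA windows. With the early identifiers weighted to the classes of the small RNA windows, their ratio was 0.920, and that of the small RNA windows was 1.18 times as high.

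**Figure D4:**
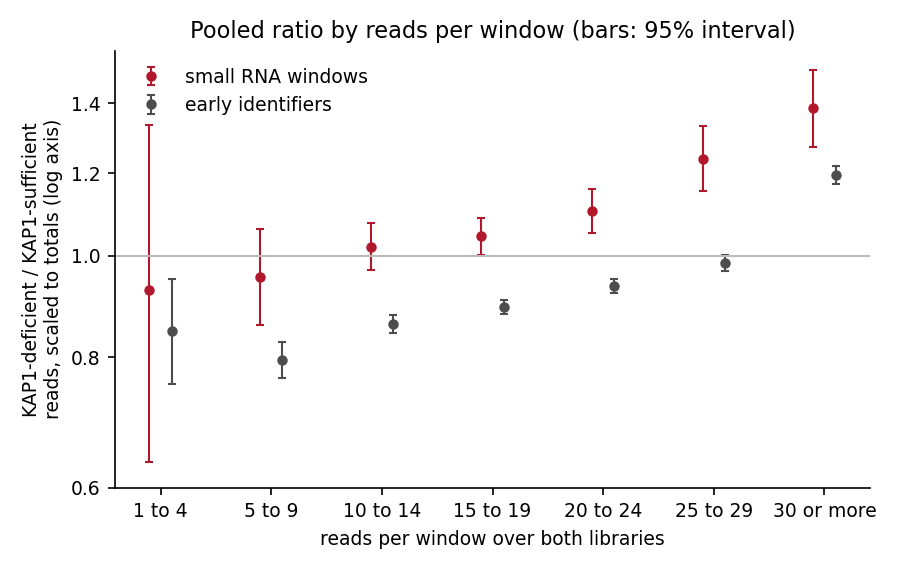
Pooled ratio (KAP1-deficient over KAP1-sufficient), scaled to library totals (log axis), by reads per window over both libraries, for small RNA windows (red) and the early identifiers (grey); bars are exact 95% intervals. From 5 reads upward both sets rise with reads, and the red point is the higher in 7 of 7 classes.

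Positions and sequences of the windows were not analysed here, so reads shared between close start sites are not accounted for. Genotype and library cannot be told apart with 1 library of each.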

How the data were processed

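The values are whole-number counts of reads near transcription start sites, which the authors deposited as 1 table with 1 column per genotype, per the file headers. Bowtie2 2.2.9, Picard 2.1.1, bedtools 2.26.0 and the build mm10 are named in the submitters' processing notes; no role is stated for them, and neither are the window width or any filter on mapping quality or duplicates. Such filters could empty windows in repeated sequence. Columns were assigned to the H3K9me3 samples from the study's description. No column was left unused (0).

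Scaling used the library totals of 480326 and 228009 reads in windows. Log2 ratios had 2 reads added in proportion to depth. Calls were made where windows averaged 5 reads or more per library. Intervals are exact binomial (Clopper-Pearson), Poisson or, for quotients of ratios, Woolf intervals at 95%. A limit of 3 reads was taken for a count of 0. Windows were named by rule: the first 2 calls in each direction by the near limit of the interval; the window with the most reads is given without its identifier. Members, sets and rules were chosen with earlier results of these data known. The code of the calls was tested on simulated data, which does not bear on how many calls are real. Alternatives covered scaling, reads added, filters, blocks and comparison windows. Software was pandas 2.3.3, scipy 1.17.1, numpy 2.4.6 and Python 3.11.15.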

Additional observations from a re-analysis of the deposited data

How the results depend on the processing

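The pooled ratio of the small RNA windows (1.09) stayed above 1 under all 8 alternatives. Both other scalings raise every such ratio, and the rest used parts of the same windows, so these are not separate checks. The ratio was 1.12 with the median of ratios (a log2 shift of -0.04 of the library ratio). It was 1.15 on the total of the early identifiers (a shift of -0.08) and 1.14 in the first block alone. The ratio of the early identifiers (0.947) was 0.974 with the median of ratios, 1.00 on their own total, by construction, 0.996 for all windows outside the blocks, 0.955 past the filter and 0.920 with weights by reads, an alternative added after the data were seen, as was leaving out sub-blocks. The 13 lower calls became 8 with the median of ratios (0.466%, against 1.446% of all windows). On the total of the early identifiers they also became 8 (0.466%, against 1.398% of all windows). They became 2 with 10 reads added, 8 with a mean of at least 10 reads and 3 in the first block alone (0.673%, against 1.81%). The 61 higher calls became 6 with 10 reads added, an addition that by construction pulls low counts towards no change. They became 32 with a mean of at least 10 reads (536 windows left). In the first block alone they became 19 (4.26%, against 2.49% of all windows). For the added reads and the higher filter, shares over all windows were not computed. The KAP1-sufficient level relative to the early identifiers (0.881) was 0.821 in the first block, 0.904 in the second and 0.833 by medians, and turned round to 1.13 against all windows outside the blocks. The KAP1-deficient level (1.01) was 0.985 in the first block, on the other side of 1 though its interval includes 1, and 1.23 against all windows outside the blocks. Beyond what the sets themselves show, the cause was not tested. No paired analysis was possible because there was only 1 library per genotype.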

Other observations

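All identifiers were also taken in blocks of 1000 numbers with at least 100 windows. In the 55 such blocks of early identifiers, the pooled ratio (KAP1-deficient over KAP1-sufficient) ran from 0.862 to 1.04 with a median of 0.947, and it was above 1 in 3. The 3 blocks in which most windows were small RNA windows had ratios of 1.04 to 1.11, and 1 of the 55 early blocks reached the lowest of these. In ENSMUSG00000065000 to ENSMUSG00000065999, with 34.7% small RNA windows, the ratio was 1.12 (1.07 to 1.17), above all 3 of these blocks. In ENSMUSG00000087000 to ENSMUSG00000087999, with 27.7%, it was 1.03 (0.990 to 1.07). The 44 late blocks without small RNA windows ran from 0.894 to 1.16 with a median of 1.03, and 4 of them were above the 1.09 of the small RNA windows. Their share of empty windows ran from 1.68% to 55.1% with a median of 12.6%, and 0 of the 44 were at or below the 1.24% of the small RNA windows. Of the early blocks, 14 of 55 were.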
